A study of Mus musculus with 4 samples.

Results

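The genes described here were Parp9, Dtx3l, Parp10, Parp11, Parp12 and Parp14, which belong to the interferon-linked ADP-ribosyltransferases and their partner, and Parp1 and Parp2, which served as constitutive relatives of the same family. They were taken by gene name from a table of read counts for 48897 genes, and all 8 were among the 17766 genes with enough reads to be tested. The study asked which mRNAs of the developing mouse retina changed when the microRNA miR-124-3p was knocked down. Wild-type C57BL/6 pups were injected into the vitreous at postnatal day 3, the left eye with 0.6 nmol of a miR-124-3p antagomir in 1 μl (anti-miR-124 group) and the right eye with the same amount of a scrambled antagomir (NC group). Retinas were collected 6 days later, at postnatal day 9, and pooled within a group, with at least 2 litters in each group. There were 2 libraries per group, both groups had been injected, and no uninjected retina was analysed here. An antagomir binds the microRNA in whichever cells take it up and is not restricted to a cell type, and miR-124-3p itself was not measured in this mRNA table, so the knockdown could not be checked here. A left-eye and a right-eye library that carried the same number in the count table are called pair A and pair B, and counts are given in the order right eye (NC), left eye (anti-miR-124). The p-values below measure the spread between pooled libraries, not between animals.

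ADP-ribosyltransferases move ADP-ribose from NAD onto proteins or nucleic acids. Parp1 and Parp2 bind broken DNA and build long ADP-ribose chains, and are expressed in nearly every cell. Most of the other members attach single ADP-ribose units, and several of their genes are switched on by interferon, which signals through JAK kinases and STAT proteins to IRF9-containing complexes on gene promoters. Parp9 has macrodomains that read ADP-ribose and works as a complex with Dtx3l, a ubiquitin ligase of the Deltex family. In the retina these genes are usually considered within the antiviral response, to which microglia, Müller glia and neurons can all contribute.

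The 4 libraries held 16317239 to 18726963 counts. The retinal markers were abundant in each of them, with 25910 to 30765 counts for Crx, a photoreceptor transcription factor. The NC library of pair A stood apart, since its 16 lens markers summed to 5.7e+04 TPM (transcript abundance scaled to gene length and library size) against 111 to 162 TPM in the other 3 libraries. Over all genes, the edgeR quasi-likelihood test called 0 of 17766 genes at a Benjamini-Hochberg adjusted p under 0.05, while 694 had an unadjusted p under 0.05 in that test, 396 of them higher after anti-miR-124 and 298 lower. DESeq2's Wald test called 33 genes.

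Of the 6 interferon-linked members, 5 had higher normalized counts in the left eye of both pairs, namely Parp9, Dtx3l, Parp14, Parp12 and Parp10, against a background of 22.8% of all genes tested. For the same 5 genes both anti-miR-124 libraries lay above both NC libraries, as they did for 16.5% of genes tested. Parp14, Dtx3l and Parp9 were 4.23-fold, 3.29-fold and 2.96-fold higher, and Parp12 was 2.01-fold higher. Parp11 did not share the pattern, and Parp1 and Parp2 were at 1.06-fold and 0.863-fold of the NC group. The median log2 fold change of the 6 interferon-linked genes was 1.29, beside 0.00066 over all genes tested. No member passed an adjusted p of 0.05 in edgeR, as no gene did (0% of genes tested), whereas 4 of the 6 had an unadjusted p under 0.05 with a higher count, against 2.23% of genes tested. DESeq2 called 3 of the 6 higher (Parp9, Dtx3l and Parp14), against 0.11% of the 27204 genes to which it gave an adjusted p. In bulk retina a higher count from more RNA per cell and one from more cells that express the gene cannot be told apart.

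**Figure D1:**
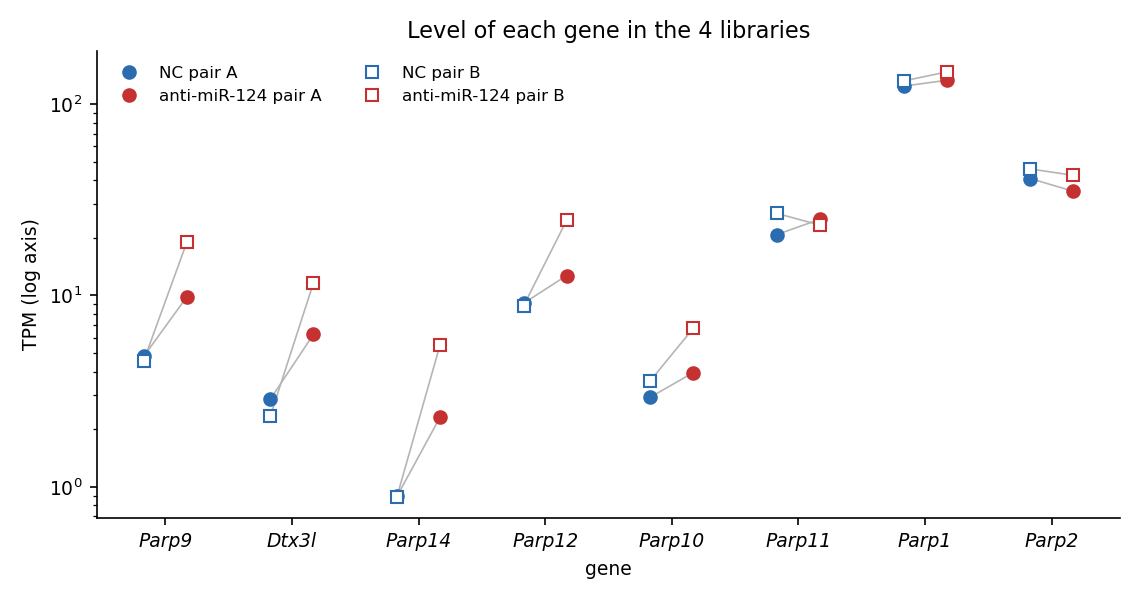
TPM (log axis) of each of the 8 genes in the 4 libraries, NC in blue and anti-miR-124 in red, with circles for pair A, open squares for pair B and grey lines joining the libraries of a pair. Parp9, Dtx3l, Parp14, Parp12 and Parp10 lay higher in both anti-miR-124 libraries, most in pair B, while Parp11, Parp1 and Parp2 stayed near their NC level.

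Parp9, which reads ADP-ribose and pairs with Dtx3l, had 100 and 201 counts in pair A (NC, then anti-miR-124) and 97 and 422 counts in pair B. The NC values were almost equal, and both anti-miR-124 values were above them, with exact Poisson 95% intervals of 81.4 to 122 and 78.7 to 118 for the NC libraries against 174 to 231 and 383 to 464 (these intervals cover counting error only). After TMM normalization the gene was 1.9-fold higher in pair A and 4.17-fold higher in pair B. Its log2 fold change in edgeR was 1.56 (SE 0.31, 95% CI 0.82 to 2.31, adjusted p = 0.981), and its adjusted p in DESeq2 was 0.000813.

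Dtx3l, the ubiquitin ligase of the pair, had 79 and 169 counts in pair A and 66 and 343 in pair B. The groups did not overlap, and as for Parp9 the left-eye library of pair B held the most counts. The ratio was 2.02-fold in pair A and 4.98-fold in pair B. The edgeR log2 fold change was 1.72 (SE 0.32, 95% CI 0.94 to 2.50, adjusted p = 0.957), and DESeq2 gave an adjusted p of 0.000598. Per length, Parp9 stood above its partner in every library, the ratio of Parp9 TPM to Dtx3l TPM being 1.67 (pair A) and 1.94 (pair B) in right eyes against 1.57 and 1.62 in left eyes. Both genes of the complex were thus higher by similar factors, and their ratio moved by less than the ratio of either gene between the groups.

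Parp14, a large macrodomain protein that adds single ADP-ribose units, was the least abundant member in the NC group and the one with the largest fold change. It had 49 and 125 counts in pair A and 50 and 324 in pair B. The NC libraries were nearly equal, and neither anti-miR-124 value came near them. The ratio was 2.41-fold in pair A and 6.21-fold in pair B, and edgeR gave a log2 fold change of 2.08 (SE 0.41, 95% CI 1.09 to 3.07, adjusted p = 0.981). The adjusted p in DESeq2 was 0.000245. Relative to Dtx3l, the Parp14 level per length was 0.311 and 0.379 in right eyes against 0.37 and 0.473 in left eyes (pairs A and B), so the groups overlapped in this ratio.

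Parp12, a zinc-finger ADP-ribosyltransferase that adds single units, had 156 and 214 counts in pair A and 155 and 454 in pair B. The groups did not overlap, but the difference was uneven, 1.29-fold in pair A and 2.81-fold in pair B. Its log2 fold change in edgeR was 1.01 (SE 0.30, 95% CI 0.29 to 1.72, adjusted p = 0.989), and DESeq2 did not call it (adjusted p = 0.341). Parp12 was more abundant per length than Parp9 in every library, by 1.9 and 1.94 times in right eyes and by 1.29 and 1.31 times in left eyes (pairs A and B).

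Parp10, another transferase of single units, had 53 and 70 counts in pair A and 66 and 130 in pair B. The groups did not overlap, but the left-eye library of pair A lay only just above the higher NC library. The ratio was 1.25-fold in pair A and 1.89-fold in pair B. The edgeR log2 fold change of 0.66 (SE 0.31, 95% CI -0.072 to 1.40, adjusted p = 0.989) was not distinguished from the spread between libraries, and DESeq2 gave an adjusted p of 1.

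Parp11, a transferase of single units found at the nuclear envelope, had 614 and 726 counts in pair A and 811 and 737 in pair B. The anti-miR-124 values lay between the NC values, so the groups overlapped and the pairs pointed in opposite directions, at 1.12-fold and 0.87-fold. The edgeR log2 fold change was -0.026 (SE 0.10, adjusted p = 0.994), with a 95% CI of -0.28 to 0.22 that does not reach the change of Parp9, Dtx3l or Parp14. Parp11 was also the most abundant of the 6 interferon-linked genes in the NC group.

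Parp1, the main DNA-break-dependent enzyme of the family, had 2518 and 2664 counts in pair A and 2747 and 3194 in pair B. On the normalized scale the pair A libraries were level (0.998-fold) and pair B differed by 1.11-fold. The edgeR log2 fold change was 0.078 (SE 0.079, 95% CI -0.11 to 0.27, adjusted p = 0.989). On the TPM scale, which the lens RNA of the right-eye library lowered, the pair A log2 ratio was 0.10 and not -0.0028, so no direction is given for Parp1 in that pair.

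Parp2, which shares the DNA-break function of Parp1, had 413 and 348 counts in pair A and 474 and 459 in pair B. It was the only member that was lower in both pairs, by 0.795-fold and 0.928-fold. In normalized CPM (counts scaled to library size) both left eyes (20.4 and 24.3) lay below both right eyes (25.6 and 26.3). In TPM, which the lens RNA lowered in the right-eye library of pair A, the groups overlapped. The TPM values were 40.8 and 45.8 in right eyes and 35 and 42.4 in left eyes, so the separation depended on the scale. The edgeR log2 fold change was -0.21 (SE 0.11, 95% CI -0.48 to 0.051, adjusted p = 0.989). The 95% intervals of Parp1 and Parp2 both end below the lower bounds for Parp9, Dtx3l, Parp14 and Parp12.

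**Figure D2:**
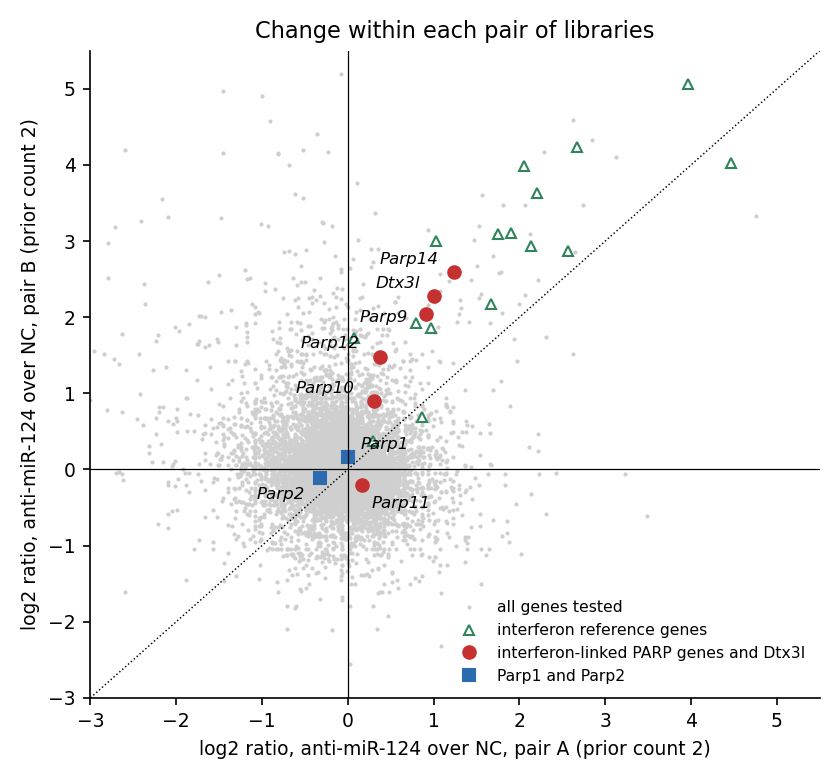
Log2 ratio of anti-miR-124 over NC normalized counts (prior count 2) within pair A (x axis) and pair B (y axis), for all genes tested (grey), the interferon-linked members (red), Parp1 and Parp2 (blue) and the interferon reference genes (green triangles); the dotted line marks equal ratios, and 34 genes fall outside the axes. Except for Parp11, the interferon-linked members lie to the upper right of the origin and above the dotted line, as do most reference genes.

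The size of the difference was not the same in the 2 pairs. The median log2 ratio of the 6 interferon-linked genes, with a prior count of 2, was 0.64 in pair A and 1.76 in pair B, while the medians over all genes tested were -0.0092 and 0.0031. Each of the 5 higher genes had its larger ratio in pair B. The larger ratios of pair B lay in its left-eye library, since the NC counts of Parp9 (100 and 97), Parp14 (49 and 50) and Parp12 (156 and 155) were nearly equal in the pairs. Without the left-eye library of pair B, the log2 fold changes in edgeR were 1.03 for Parp9, 1.22 for Dtx3l, 1.34 for Parp14, 0.46 for Parp12 and 0.24 for Parp10, and the median of the 6 genes was 0.75. Without the left-eye library of pair A, edgeR's adjusted p was 0.00043 for Parp9, 0.000789 for Dtx3l, 0.000225 for Parp14 and 0.00152 for Parp12, against 1.28% of the 18809 genes tested then that were called higher. The remaining library of that group was assumed to vary like the NC libraries. With any of the other 3 libraries left out, edgeR called no member, the adjusted p running from 0.251 to 1 for Parp14 and from 0.297 to 1 for Parp9.

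The order of the levels per length was read from the TPM, which the rule for choosing the genes did not use. In the NC group it ran from Parp1 (mean 128 TPM) through Parp2 (43.3), Parp11 (23.8), Parp12 (8.97), Parp9 (4.68), Parp10 (3.26) and Dtx3l (2.61) to Parp14 (0.891), and no neighbours in this order overlapped between their 2 libraries. In the anti-miR-124 group the means were 140 TPM for Parp1, 38.7 for Parp2, 24.1 for Parp11, 18.7 for Parp12, 14.4 for Parp9, 8.95 for Dtx3l, 5.34 for Parp10 and 3.91 for Parp14. Dtx3l had passed Parp10 in this order, and from Parp11 downwards each gene overlapped the next one within its 2 libraries. The family was therefore less spread out in the anti-miR-124 group, where Parp1 exceeded Parp14 by 57.6 and 26.7 times in pairs A and B, against 139 and 149 times in the NC group. The ratio of Parp1 to Parp9 was likewise 25.8 and 29 in right eyes and 13.6 and 7.76 in left eyes. Within the constitutive pair, Parp1 exceeded Parp2 by 3.04 and 2.89 times in right eyes and by 3.81 and 3.47 times in left eyes.

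Parp14, Dtx3l and Parp9 lie side by side on chromosome 16 (GRCm38). Parp14 occupies chr16:35831892-35871497 on the minus strand, Dtx3l chr16:35926515-35939027 on the minus strand and Parp9 chr16:35938470-35972621 on the plus strand. The starts of Dtx3l and Parp9 face away from each other, and the 2 gene spans share 558 bases at their 5′ ends, where 458 exonic bases are annotated on both strands in GENCODE M21. The start of Parp14 lies 55017 bases from the end of Dtx3l. The library kit keeps the strand, but whether the counting used it is not given in the sources used here, so reads in the shared exonic bases could have been split either way. The shared bases are few beside the 4872 exonic bases of Parp9 and the 5725 of Dtx3l.

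The genes around this cluster had smaller differences. Hspbap1, 3429 bases beyond Parp14, had a log2 fold change of 0.17 (SE 0.20), and Dirc2 and Sema5b beyond it had 0.11 and -0.038. On the other side, Kpna1, a nuclear import receptor whose gene lies 10741 bases from Parp9, had -0.076 (SE 0.081) with 2668 to 2947 counts, and Wdr5b had -0.12. The antisense gene Gm15564, which overlaps 5871 bases of Parp9, had 42 and 64 counts in pair A and 33 and 50 in pair B. Its log2 fold change was 0.53 (SE 0.33), and reads of Parp9 and Gm15564 cannot be told apart in the overlap if the counting ignored strand.

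**Figure D3:**
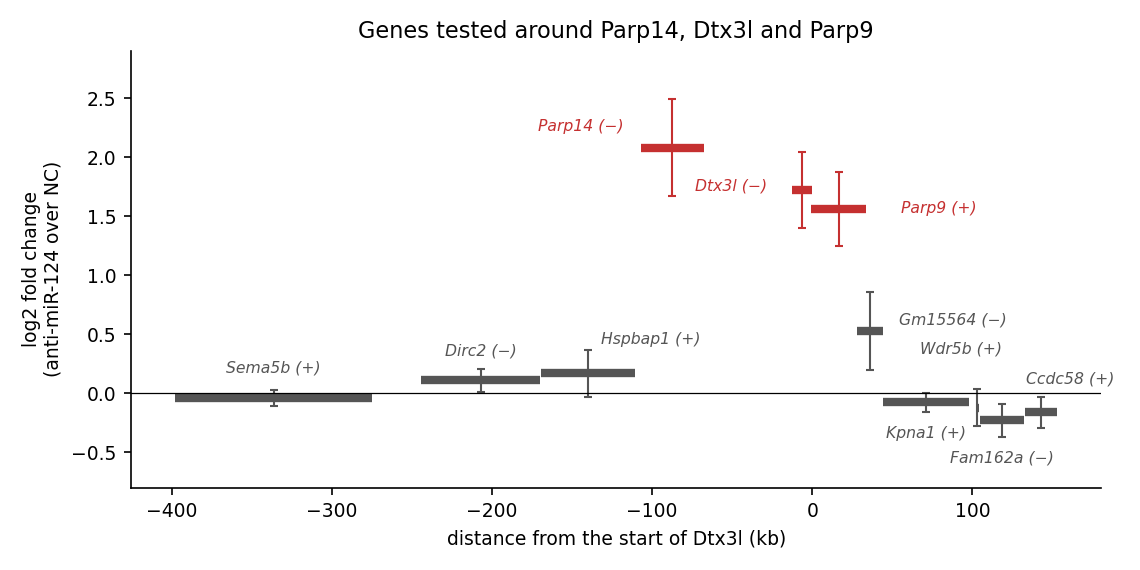
Log2 fold change (anti-miR-124 over NC, edgeR) of the tested genes around Parp14, Dtx3l and Parp9 against distance from the start of Dtx3l in kb; horizontal bars span the genes, vertical bars are 1 SE, and the strand follows the name. The 3 members (red) lie between 1.56 and 2.08, and the other genes (grey) between -0.23 and 0.53.

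The other members lie apart, Parp10 at chr15:76232995-76243440 (minus strand), Parp11 at chr6:127446855-127513865 (plus), Parp12 at chr6:39086412-39118349 (minus), Parp1 at chr1:180568975-180601254 (plus) and Parp2 at chr14:50807897-50821301 (plus). The 3 nearest tested genes on each side of the 8 members came to 36 genes that are not members. Of these, 0 were higher and 1 was lower at an unadjusted edgeR p under 0.05, against 2.23% and 1.68% of all genes tested, and their median log2 fold change was 0.019. Both anti-miR-124 libraries lay above both NC libraries for 6 of the 36, beside 16.5% of all genes tested. The lower one, ENSMUSG00000106962.1, lies within the span of Parp11 on the same strand and had 19 and 4 counts in pair A and 14 and 4 in pair B (log2 fold change -2.09, edgeR adjusted p = 0.989). With so few counts it is small beside the 614 to 811 counts of Parp11.

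The promoters were searched for the core of the interferon-stimulated response element, GAAA followed by any 2 bases and GAAA, which interferon-activated complexes bind, and for the GAS element, TTCNNNGAA, both on either strand from 250 bases before to 50 bases after the start in RefSeq (GRCm38.p6). The table held Dtx3l, Parp11, Parp12, Parp1 and Parp2 but not Parp9, Parp10 or Parp14. The response element core was found in 3.44% of all 32851 promoters of this length and in 1 of the 5 members, and the GAS element in 8.3% of promoters and in 1 of the 5. Both matches were in Parp11, where they overlap. The windows below are shown to set the Parp11 match beside those of Isg15 and Ifit1, interferon-induced genes that were higher in both pairs here. Capitals mark the match, each sequence is on the strand of its gene, and the windows are chr6:127446786-127446815 (plus strand), chr4:156200871-156200900 (minus) and chr19:34640794-34640823 (plus) in that order.
Parp11: ttccttttagTTTCGATTTCttggaacccg
Isg15: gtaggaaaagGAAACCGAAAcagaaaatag
Ifit1: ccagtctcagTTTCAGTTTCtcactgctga
The Parp11 match spans bases -44 to -35 from the start, that of Isg15 -72 to -63 and that of Ifit1 -85 to -76. Another annotated Parp11 promoter, at chr6:127453377-127453676, held neither element. Isg15 and Ifit1 held further matches in the same promoters, and 7 of 13 reference genes in the table held at least 1. In normalized counts the groups overlapped for Parp11, which holds the match, and for Parp1, which does not. Parp2, also without it, was lower in both pairs. Dtx3l and Parp12 were higher in both pairs, and these letters are not in their windows.

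Because the groups differ in miR-124-3p, the longest annotated 3′ UTR of each member (GENCODE M21) was searched for GTGCCTT, the complement of bases 2 to 8 of the microRNA. A match was found in 15.8% of the 13893 tested genes with a 3′ UTR and in 1 of the 8 members. The match is in Parp9, whose 3′ UTR is 379 bases long, at chr16:35972337-35972365 (plus strand), and it is printed with the complement of the seed in capitals.
Parp9: ctagcatcataGTGCCTTtgtctttacct
The 3′ UTRs of Dtx3l (2791 bases), Parp14 (1775), Parp12 (908) and Parp10 (302), which were also higher in both pairs, do not hold these letters, nor do those of Parp11, Parp1 and Parp2. Parp9, with the match, and Dtx3l, without it, had log2 fold changes of 1.56 and 1.72 that lie within each other's 95% interval. Whether the match had a part in the Parp9 value was not tested.

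The remaining genes of ADP-ribose metabolism were read from the same edgeR fit in 5 lists holding 43 genes, of which 41 were tested. Of the 41, 2 were higher at an unadjusted p under 0.05, Zc3hav1 and Naprt, against 2.23% of all genes tested. None was lower at that threshold, against 1.68%. Over the 41 genes, 10 were higher in both pairs, against 22.8% of all genes tested. Lower in both pairs were 13, beside 4258 of the 17766 genes tested. The median log2 fold change of the 41 genes was 0.011. The same shares are the background for the counts of each list below.

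Zc3hav1 encodes the zinc-finger antiviral protein, a PARP family member without transferase activity that binds viral RNA. It had 67 and 108 counts in pair A and 54 and 281 in pair B, with no overlap between the groups. Its log2 fold change was 1.58 (SE 0.42, 95% CI 0.56 to 2.59, edgeR adjusted p = 0.989). Of the 9 other PARP genes it was the only one with an unadjusted p under 0.05. The list had 3 genes higher in both pairs and 2 lower in both, with a median of 0.11. Parp3, a DNA-repair relative, had a log2 fold change of 0.74 (SE 0.52), and its pairs pointed in opposite directions. Parp8 had -0.14 (SE 0.069).

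The Deltex relatives of Dtx3l differed less than Dtx3l did. Of Dtx1 to Dtx4, 3 were higher in both pairs, but only by small amounts, and the 4 log2 fold changes ran from 0.05 to 0.20. Dtx1 had 0.14 (SE 0.10) and Dtx2 0.20 (SE 0.17), and their upper 95% bounds of 0.39 and 0.60 lie below the lower bound of 0.94 for Dtx3l. Neither passed the test.

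**Figure D4:**
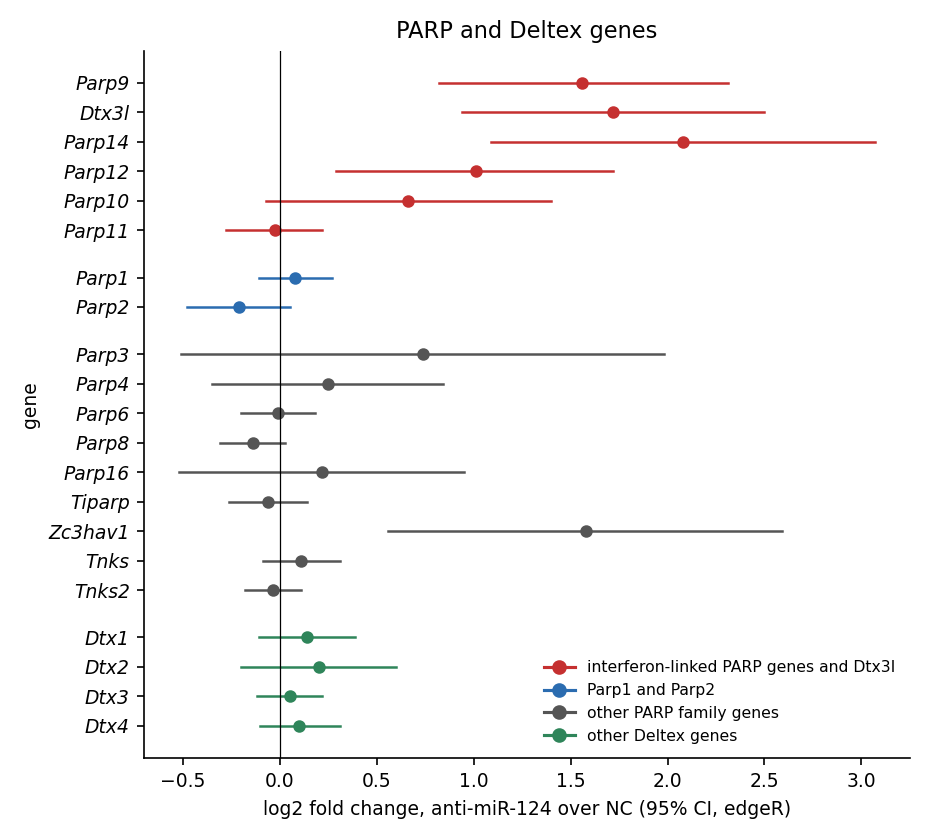
Log2 fold change (anti-miR-124 over NC, edgeR) with its 95% confidence interval for the interferon-linked members (red), Parp1 and Parp2 (blue), the other PARP family genes (grey) and the other Deltex genes (green). The intervals of Parp9, Dtx3l, Parp14, Parp12 and Zc3hav1 lie above 0, and those of the other genes include it.

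Genes that remove or read ADP-ribose had log2 fold changes near 0 or below it. Of 11 tested, 1 was higher and 5 were lower in both pairs (median log2 fold change -0.028). Parg, the hydrolase that cuts ADP-ribose chains, had -0.11 (SE 0.067) and Macrod1, a macrodomain hydrolase, -0.47 (SE 0.35). Of the genes that supply or use NAD, 9 of 11 were tested, with 2 higher and 2 lower in both pairs and a median of 0.053. Naprt, which starts NAD synthesis from nicotinic acid, had 11 and 14 counts in pair A and 7 and 37 in pair B, and a log2 fold change of 1.39 (SE 0.57, 95% CI 0.02 to 2.76, edgeR adjusted p = 0.989). Its difference rested on the left-eye library of pair B. Nmnat3, the mitochondrial NAD-forming enzyme, had 0.39 (SE 0.27). The partners of Parp1 and Parp2 in strand-break repair had 1 gene higher and 4 lower in both pairs of 8, with a median of -0.066, and Polb, the repair polymerase, and Xrcc1, the repair scaffold, had -0.13 (SE 0.083) and 0.11 (SE 0.080).

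The members were set beside 16 interferon-induced reference genes that are not members. All 16 were higher in both pairs with no overlap between the groups, against 22.8% and 16.5% of all genes tested. For 15 the unadjusted edgeR p was under 0.05 with a higher count, against 2.23% of genes tested. DESeq2 called 10, against 0.11% of the 27204 genes to which it gave an adjusted p. The list was chosen with earlier results of these data known, so these counts describe it and are not independent evidence. The median log2 fold change of the 16 genes was 2.60, with pair medians of 1.82 and 2.97. The log2 fold changes of all 8 members lay below that median. Ifit1, an antiviral RNA-binding protein, had 3 and 78 counts in pair A and 3 and 174 in pair B. Rsad2, an antiviral enzyme, had a log2 fold change of 2.63 (SE 0.29) and Bst2, which tethers budding virus, 3.14 (SE 0.43), each at an edgeR adjusted p of 0.487. Irf9, the DNA-binding part of the complex that interferon activates, had 137 and 287 counts in pair A and 131 and 501 in pair B, close to the proportions of Parp9. Transcripts of interferons themselves were at the limit of detection. Of 7 interferon genes, 6 had 0 counts in every library, which allows up to 3 counts or 0.16 to 0.184 CPM (counts scaled to library size), and Ifng had 1 count in the right eyes of pair A.

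The pattern over the 4 libraries was then compared with that of every other tested gene with a mean of at least 20 counts, 15719 genes in all, as the distance between log2 normalized counts centred on the NC mean. The genes nearest to the median profile of the interferon-linked members were Samd9l (distance 0.101), Tifab (0.156), Mapkapk3 (0.202), Il10ra (0.215) and B2m (0.242), against a median distance of 1.84. The members themselves lay farther from this median profile than these genes. Their distances were 0.39 for Parp12, 0.392 for Parp9, 0.651 for Dtx3l, 0.88 for Parp10, 1.03 for Parp14 and 1.9 for Parp11. Samd9l, an interferon-induced antiviral gene, had 36 and 62 counts in pair A and 35 and 121 in pair B, and B2m, the light chain of MHC class I, had 288 and 403 in pair A and 283 and 1009 in pair B. Il10ra is a cytokine receptor chain of leukocytes and had 13 to 44 counts. These distances use 4 libraries and are a description of likeness only.

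Microglia and gliosis markers were higher with the members in pair B but mostly not in pair A. Of 12 microglia markers, 6 were higher in both pairs and none was at 0, and their summed level was 159 to 201 TPM in right eyes and 200 to 551 TPM in left eyes. C1qb, a complement chain of microglia, had 174 and 169 counts in pair A and 123 and 484 in pair B, and Ptprc, the pan-leukocyte antigen CD45, had 30 and 28 in pair A and 31 and 129 in pair B. The summed microglia level was 201 TPM (NC) and 200 TPM (anti-miR-124) in pair A, where lens RNA lowered the TPM of the NC library. In pair B the sum was 159 and 551 TPM. In normalized counts (prior count 2) the median log2 ratio of the 12 markers was -0.062 in pair A and 1.72 in pair B. Parp9, Dtx3l and Parp14 were 1.9-fold, 2.02-fold and 2.41-fold higher in pair A in TMM-normalized counts. The part of microglia in the members' values was not tested in either pair. Of 8 gliosis markers, 2 were higher in both pairs, and their sum was 409 to 603 TPM in right eyes and 436 to 925 TPM in left eyes. Gfap, which reactive Müller glia and astrocytes express, had 1496 and 720 counts in pair A and 631 and 3764 in pair B, and its part in the members' values was not tested. The 10 markers of other leukocytes summed to 11 and 13 counts in right eyes and 8 and 37 in left eyes, with Cd3e and Ly6c2 at 0 in every library. Ccr2, a monocyte receptor, had 0 and 0 counts in pair A and 2 and 25 in pair B and so made up most of the 37 counts, and the part of monocytes in the members' values in pair B was not tested. The right-eye library of pair A held the lens RNA. Without that library, the edgeR log2 fold changes were 1.67 for Parp9, 1.94 for Dtx3l and 2.15 for Parp14. They were 1.10 for Parp12, 0.59 for Parp10 and -0.14 for Parp11.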

How the data were processed

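Raw counts of reads per gene in 4 retinal libraries were used as the authors deposited them, and the RPKM values that the authors deposited beside them were not used. The submitters' processing notes name HISAT2 and mm9; the counting tool, annotation and strand setting are not given in the sources used here. Of the symbols matched to RefSeq, 99.8% overlapped their GRCm38 position, as did all 8 members, and coordinates are therefore given as GRCm38. TPM was computed from the counts and the deposited gene lengths. Column names gave the eye, and so the group, but not the replicate number in the labels. No 2 libraries agreed within sampling noise (lowest chi-square per degree of freedom 3.44).

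Genes were filtered with filterByExpr, scaled by TMM and tested across all 17766 genes with the two-sided quasi-likelihood test of edgeR 4.0.16 (R 4.3.3), the threshold being a Benjamini-Hochberg adjusted p of 0.05, and the script was tested on simulated data. DESeq2 1.42.0, other scalings and filters, a replicate block and omission of each library were alternatives. Pair ratios of members are TMM-normalized without a prior count, while those of lists and the likeness profile used a prior count of 2. Named genes were all members, the ADP-ribose list genes with an unadjusted p under 0.05 and the 2 of each list with the smallest p. The 5 nearest in pattern, the neighbours on chromosome 16 and fixed markers were named too. Of the interferon reference genes, Ifit1 and Rsad2 had the smallest p in edgeR. Bst2, Irf9, Parp3 and Ccr2 were named outside these rules, and other reference genes with an unadjusted p under 0.05 were not named. Isg15 was named for its promoter and Crx as a retinal marker after their values were seen; 1 marker fixed for naming is not reported here. The members and lists were chosen with earlier results of these data known.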

Additional observations from a re-analysis of the deposited data

How the results depend on the processing

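The members' log2 fold changes over both pairs kept their direction under the alternatives tried except for Parp11, and within pairs the Parp1 ratio of pair A turned from -0.0028 to 0.02 to 0.10 on the 3 TPM scales. Parp9, Dtx3l, Parp14, Parp12, Parp10, Parp1 and Parp2 kept their sign in 12 of 12 settings, while Parp11 moved from -0.026 to 0.097 when the right-eye library of pair B was left out and to 0.038 when the left-eye library was (range over the omissions -0.14 to 0.097). The count of 5 interferon-linked genes higher in both pairs was the same under 8 scalings and filters, including TPM without the lens markers. The number of genes past an adjusted p of 0.05 was less stable, 0 in the edgeR test as reported and 379 with no filter beyond 1 count, and 33 with DESeq2. Omission of 1 library gave 0 to 256 genes at an adjusted p under 0.05 and 333 to 1893 at an unadjusted p under 0.05, the highest values arising without the left-eye library of pair A. At an unadjusted p under 0.05, 694 genes in edgeR became 1577 without the filter and 354 with DESeq2. The causes were not tested. Without the filter, edgeR's adjusted p was 2.22e-14 for Parp9, 1.5e-13 for Dtx3l, 6.03e-16 for Parp14 and 1.83e-07 for Parp12, so the call of these genes depends on the filter and the tool, and over all alternatives the adjusted p of Parp9 ran from 2.22e-14 to 1.

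With a replicate block for the number that a left and a right eye shared, edgeR called 0 genes and 376 had an unadjusted p under 0.05, and the median of the interferon-linked genes was 1.22. The shared number was not shown to pair the libraries, since the deviations of same-numbered libraries correlated at -0.162. With the numbers crossed, an alternative added after the data were seen, 160 genes passed the adjusted threshold and 1306 the unadjusted one. The omission of each library from the count of non-overlapping members, also added after the data were seen, gave 5 or 6 of 6. The share over all genes was not computed for these omissions, and groups lie apart more easily with fewer libraries. These counts therefore do not show stability. Depth limits Naprt, the interferon genes and the leukocyte markers, which had few or 0 counts.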
